A study of Mus musculus with 3 samples.

Results

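C7 is the CD8+ T cell cluster that the study's annotation calls naive, drawn from spleens on day 7 after bone marrow transplantation. Its members were taken as the CD8 cells of the deposited cluster value whose number of cells per treatment group equals that of the naive cluster in the study, so no expression value entered the choice made here. There were 432 C7 cells among 10833 CD8 cells and 21204 T cells in all. The saline pools held 39, 41 and 35 of them, the pools given 5 mg/kg of cyclosporine (CSA; the low dose) held 59, 41 and 56, and those given 50 mg/kg (the high dose) held 46, 59 and 56.

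Naive CD8+ T cells have left the thymus and have not yet met their antigen. They circulate through spleen and lymph nodes with the help of the chemokine receptor Ccr7, are kept resting by factors such as Lef1, Tcf7 and Klf2, and live on interleukin 7 and on contact with self MHC. After allogeneic transplantation, donor T cells that recognise host antigen divide and become effector cells, and CSA, which binds cyclophilin and so blocks calcineurin and NFAT, dampens that step.

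Irradiated B6D2F1 mice received T cell-depleted bone marrow from B6 mice together with B6 T cells and TEa cells, which are CD4+ T cells with a transgenic receptor, so every group carried the same transplant. CSA was given daily at either dose from day 0 to day 6, and the mice given saline on the same days are the controls. Spleens of 2 mice made a pool, each group had 3 pools, and sorted CD4+ and CD8+ T cells were combined 1:1, tagged per pool and loaded as 1 droplet capture per group. Capture and treatment therefore cannot be told apart, and the pool is the replicate in every test (n = 3 pools per group). The study describes the sorted cells as donor T cells, and the markers that the labels list for the sort are CD4, CD8 and CD90.2. The study lists both B6 and B6D2F1 mice as CD90.2+, so these markers alone do not separate donor from host cells. Whether C7 held host cells was not tested. The CD45.1 antibody marks TEa cells alone.

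RNA was counted as unique molecular identifiers (UMIs), 1 per captured molecule. The C7 cells of a pool summed to between 116119 and 305823 UMIs, and levels are given as CPM, the UMIs of a gene after that sum is scaled to 1000000. Depth moved with treatment: the median UMIs per C7 cell, averaged over pools, were 3523 with saline, 4545 at the low dose and 4928 at the high dose, against 4147, 6241 and 7266 in the other CD8 cells. Every CD8 cell of the table had a UMI of Cd8a and none had one of Cd4, so these genes are no check of the lineage. Of the C7 cells 27 (6.25%) carried 2 strong hashtags, against 6.05% of the other CD8 cells, and the barcodes of 8 were also found in a second capture. A single C7 cell held 26 of the 28 UMIs of Jchain and all 290 of Igkv6-15, both genes of antibody-forming cells. In sums over a pool, fewer cells of a kind and less RNA per cell cannot be told apart.

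C7 had most of the features that its name asks for, which are given without a test because the clusters were drawn on these genes. Ccr7 lay between 237 and 377 CPM in the 9 pools of C7 and between 59.1 and 135 CPM in C5, the Tcf7-high cluster that came next. The mean of C7 also ranked 1 of 9 clusters for Lef1 (273 ± 45.8 CPM, SD over 9 pools) and Il7r (343 ± 130.0 CPM). In C5 these stood at 182 ± 48.4 and 296 ± 134 CPM, and for both genes the pools of C7 and C5 overlapped. C7 ranked 2 for Tcf7 (206 ± 40.8 against 314 ± 144 CPM in C5). At the other end C7 ranked 9 of 9 for Cd44, the adhesion molecule of activated and memory T cells (23.7 ± 12.7 CPM), for the cytotoxic protease Gzmb (408 ± 189.8 CPM) and for the cycling marker Mki67 (46.4 ± 38.0 CPM). Some naive-list genes were lower with saline. Klf2 stood at 591 and 558 CPM in C7 cells below 10 and of 10 or more Ccl5 UMIs, against 640 in other CD8 cells. S1pr1 stood at 111 and 69.7 against 200, Cd27 at 224 and 167 against 275, Itga6 at 17.5 and 0 against 35.3 CPM. The list's other genes were higher in at least 1 of these ranges. Klf2 was higher in C7 at the high dose (997 and 1027 against 910 CPM).

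**Figure D1:**
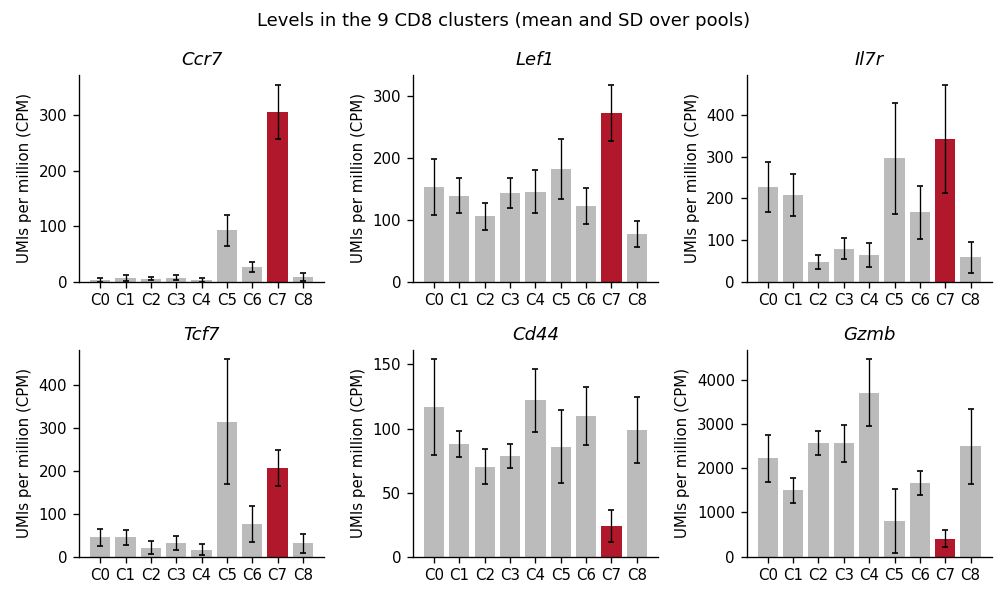
Level (CPM) of 6 genes in the 9 CD8 clusters; bars are means and error bars SDs over pools (9 pools, but 6 for C4 and 8 for C8). C7 has the highest mean for Ccr7, Lef1 and Il7r, is second to C5 for Tcf7, and is the lowest for Cd44 and Gzmb. Its error bars overlap those of C5 for Lef1, Il7r, Tcf7 and Gzmb, and for Il7r also those of C0, C1 and C6.

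Memory genes were not uniformly low in C7. Ly6c2, the Ly6C protein of memory and of some resting CD8+ cells, stood at 1170.3 ± 184 CPM, rank 3 of the 9 clusters, and Ccl5, a chemokine of memory and effector CD8+ cells, at 2854 ± 1565 CPM, rank 8. The level in C7 over that in the other CD8 cells, with all 9 pools together, was 0.487-fold for the interleukin 2 and 15 receptor chain Il2rb, 0.435-fold for the chemokine receptor Cxcr3, 1.06-fold for Ly6c2 and 1.68-fold for Eomes, a memory transcription factor. For the last 2 these ratios hide a difference between groups. Ly6c2 stood at 1229.6 ± 49.1, 967 ± 139 and 1314 ± 121 CPM in C7 in the order of dose and at 492 ± 73.0, 594 ± 71.1 and 2224 ± 312 CPM in the other CD8 cells, so it was higher in C7 with saline and lower at the high dose. Eomes stood at 48.5 ± 15.6, 67.6 ± 14.2 and 83.3 ± 36.8 CPM in C7 and at 46.4 ± 3.87, 25.9 ± 2.39 and 46.0 ± 1.92 CPM in the other CD8 cells. Among the genes of at least 100 CPM in C7 with the largest such ratio over all pools were Tmem108 (74.0-fold), Igfbp4 (60.7-fold), Ccr7 (24.9-fold), Dapl1 (23.4-fold), Nsg2 (14.8-fold), Socs3 (7.41-fold), Ms4a4c (6.74-fold), Jun (5.97-fold) and Bcl2 (4.34-fold). Of these Socs3 is an inhibitor of cytokine signalling, Jun an immediate early factor and Bcl2 a survival protein.

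Surface CD8, read with an antibody and described after its values were seen, was high on C7. The median antibody count per C7 cell was 123, 139 and 127 in the saline pools, 185, 160 and 168 at the low dose and 150.5, 146 and 162 at the high dose. It was above that of the other CD8 cells in each of the 9 pools, by 1.23 to 1.62 times (mean 1.37 ± 0.129, exact two-sided sign-flip test over 9 pools p = 0.0039, the smallest this design allows), although C7 cells held fewer RNA UMIs. The antibody level was not particular to C7: averaged over pools it was 156 ± 32.8 in C4, 151 ± 19.9 in C7 and 143 ± 27.4 in C2.

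Markers of other cells were low in the C7 sums. The 10 B cell genes summed to 218 to 583 CPM in the saline pools, 233 to 257 at the low dose and 259 to 329.5 at the high dose, and the 8 myeloid genes to 203 to 467, 242 to 449 and 243 to 602 CPM. The 4 plasma cell genes summed to 33.8 to 274, 30.6 to 54.7 and 26.0 to 44.6 CPM. In no pool did the 7 erythroid genes pass 35.6 CPM, the 5 NK cell genes 52.0, the 4 measured genes of gamma-delta T cells 30.9 CPM or the 4 CD4 lineage genes 20.3 CPM, and the 3 platelet genes were at 0. Few of these genes had enough counts to test in C7, and 1 passed, Cd74 of the B cell list, which fell at the high dose.

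The first question is whether the part of the CD8 cells that C7 made up differed with CSA. C7 was 2.74%, 2.54% and 2.18% of the CD8 cells of the saline pools, 8.53%, 4.79% and 5.03% at the low dose and 4.12%, 5.25% and 4.34% at the high dose. All 6 CSA pools lay above the 3 saline pools, and the CSA doses overlapped. The mean share was 2.49% ± 0.282 with saline, 6.11% ± 2.09 at the low dose (2.46-fold) and 4.57% ± 0.600 at the high dose (1.84-fold). The test for a trend across doses did not pass (exact two-sided Jonckheere-Terpstra test, p = 0.189, 0.284 after Benjamini-Hochberg adjustment over the 9 clusters). Each dose against saline gave an exact two-sided permutation p = 0.1, the smallest that 3 against 3 pools allow. A count model passed at both doses (edgeR on numbers of cells, log2 change 1.26, adjusted p = 0.00116 at the low dose; 0.88, adjusted p = 0.0103 at the high dose).

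**Figure D2:**
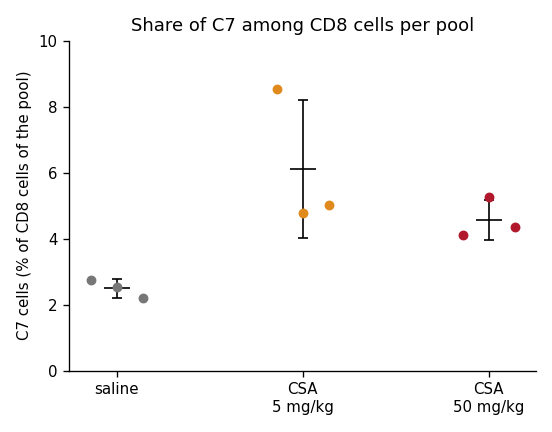
C7 cells as a percent of the CD8 cells of each pool; points are pools, lines are means and error bars SDs of 3 pools. The saline pools lie between 2.18% and 2.74%, and the CSA pools between 4.12% and 8.53%.

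A share also depends on the other clusters, and the cycling cluster C4 went from 21.9% of CD8 cells with saline to 3.06% at the low dose and 0.567% at the high dose. With the cycling clusters C2, C3 and C4 left out of the denominator, C7 made up 5.34% ± 0.700, 11.9% ± 3.08 and 8.35% ± 0.850 in the order of dose, and the trend again did not pass (exact adjusted p = 0.466). The naive cluster of the CD4 cells in the same pools, C9, held 2.73% ± 0.879, 3.55% ± 0.834 and 3.07% ± 1.32 of CD4 cells.

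The T cell receptor marks clonal descent, since cells with the same receptor usually come from 1 parent cell. A clonotype was read in 338 C7 cells (78.2%, against 83.3% of the other CD8 cells). Of these 1 shared its clonotype with another CD8 cell of its pool (0.296%, exact 95% interval 0.00749% to 1.64%), against 2661 of 8665 other CD8 cells (30.7%). That cell came from pool 3 at the high dose, and its 2 partners were C3 cells. The 338 C7 clonotypes were all distinct, and 0 were found in more than 1 pool.

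The difference in sharing held in every pool. In the saline pools 39.1%, 39.2% and 38.7% of the other CD8 cells shared a clonotype, at the low dose 25%, 23.3% and 23.7% and at the high dose 29.2%, 21.3% and 25.7%, while C7 stood at 0 in all pools but the one at 2.08%. The mean difference was -29.2 ± 7.61 percentage points (C7 lower in 9 of 9 pools, exact two-sided sign-flip p = 0.0039, the smallest possible). Across the other clusters the share ran from 22.5% in C1 to 49.5% in C4. Within C7 it did not pass a test across doses (exact trend p = 0.667). A pool held 27 to 48 C7 cells with a clonotype, so a clone that is small in C7 would often be missed at this depth.

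Use of the beta chain V genes gave no call. Of the 19 V genes seen in at least 1% of cells, 0 passed after Benjamini-Hochberg adjustment and 3 had an unadjusted p under 0.05 (exact sign-flip tests over 9 pools). Trbv29 made up 4.42% ± 2.63 of C7 cells and 10.5% ± 1.40 of the other CD8 cells and was lower in 9 of 9 pools (exact p = 0.0039, adjusted p = 0.0742). The other 2 were Trbv15 (7.29% against 2.68%, exact adjusted p = 0.223) and Trbv12-2 (6.17% against 3.74%, exact adjusted p = 0.148).

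Few genes changed in C7 at the low dose, where 23 rose and 14 fell of 3357 tested, or 1.1% (edgeR quasi-likelihood test on sums per pool, Benjamini-Hochberg adjusted p under 0.05), with 282 at an unadjusted p under 0.05. Of the 1027 genes at least as high in C7 as in the other CD8 cells, 19 rose and 0 fell (1.85%). The counts rested on single pools: without saline pool 1 there were 24 calls, without saline pool 3 there were 19 and without low-dose pool 1 there were 23.

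Of the 20 genes of the naive and homing list 18 were tested, and 0 passed at the low dose, beside 1.1% of all genes. Ccr7 stood at 324, 338 and 319.7 CPM in the saline pools and at 279, 246 and 237 CPM at the low dose (log2 change -0.34 ± 0.17 SE, edgeR adjusted p = 0.597). These pools do not overlap, but the difference missed the threshold.

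Most of what rose at the low dose was ribosomal. Of the 78 ribosomal protein genes tested 17 rose and 0 fell, against 0.685% of all genes called higher. Rps29, a protein of the small ribosomal subunit, stood at 2282, 2109.8 and 2464 CPM with saline, at 3893, 3999 and 3632 CPM at the low dose and at 2593, 2296 and 2347 CPM at the high dose (log2 0.77 ± 0.08, edgeR adjusted p = 7.44e-08 at the low dose; 0.06 ± 0.08, 0.856 at the high dose). The low-dose pools stood above both other groups, which overlapped. Rpl38 (log2 0.80), Rps28 (0.74), Rps21 (0.65), Rpl39 (0.65), Rps27 (0.62) and Rpl36 (0.60) were also called, and these 7 calls held whichever pool was left out. Most of the list was not: Rps24, the member of the highest level in C7, stood at 10934 ± 83.9, 11544 ± 528 and 10513 ± 602 CPM in the order of dose (edgeR adjusted p = 0.754 and 0.649 against saline), and the median change of the 78 at the low dose was 0.04 on the log2 scale beside 0.00 over all genes.

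The other 3 of the 10 largest rises at the low dose were Ahnak, a large scaffold protein (87.1 ± 44.8 to 199 ± 37.3 CPM, log2 1.15, edgeR adjusted p = 0.0423), Romo1, a small protein of the mitochondrial inner membrane (94.1 ± 7.52 to 178 ± 20.9 CPM, log2 0.96, 0.038) and Mrpl52 of the mitochondrial ribosome (232 ± 27.5 to 367 ± 36.9 CPM, log2 0.68, 0.0423). Each of these calls was lost in leave-one-out fits: Ahnak without any 1 of saline pool 1, saline pool 3, low-dose pool 2 and low-dose pool 3 (edgeR adjusted p up to 0.445), and Romo1 and Mrpl52 without any 1 of saline pool 1, saline pool 2, saline pool 3, low-dose pool 1 and low-dose pool 3 (up to 0.226 and 0.348). With library size in place of TMM scaling Ahnak (edgeR adjusted p = 0.0566) and Mrpl52 (0.0525) did not pass either. Of the effector list Lgals1 (galectin 1) fell from 1436 ± 68.5 to 901 ± 110.5 CPM (log2 -0.66, edgeR adjusted p = 0.0057), a call lost without either saline pool 2 or low-dose pool 1 (up to 0.0904). Lgals1 was also called lower at the low dose in the naive CD4 cluster C9. There 6 of 9 effector genes tested fell, beside 8.77% of all genes.

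At the high dose 42 genes rose (1.25% of those tested) and 76 fell (2.26%), or 3.52% in all, with 429 at an unadjusted p under 0.05. Without saline pool 2 there were 73 calls. Of the 1027 genes at least as high in C7 as in the other CD8 cells 14 rose and 22 fell (3.51%).

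Of the 18 naive genes tested 2 rose and 1 fell at the high dose, beside 1.25% and 2.26% of all genes. Dapl1, a gene of naive and early memory T cells, stood at 381, 318 and 211 CPM with saline, at 259, 355 and 401 CPM at the low dose and at 1145, 750.0 and 668 CPM at the high dose (log2 1.44 ± 0.20, edgeR adjusted p = 4.39e-06). Klf2, a factor of resting and recirculating T cells, stood at 655, 642 and 444 CPM with saline, at 578, 543 and 514 CPM at the low dose and at 1010.2, 852 and 1161 CPM at the high dose (log2 0.77 ± 0.13, edgeR adjusted p = 0.000244). For both genes every high-dose pool was above every other pool, and both calls held whichever pool was left out.

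Il7r, the interleukin 7 receptor, fell. It stood at 410.3, 521 and 296 CPM with saline, at 463, 326 and 467 CPM at the low dose and at 165, 173 and 264 CPM at the high dose (log2 -1.04 ± 0.20, edgeR adjusted p = 0.000656). The high-dose pools lay below all others, and the call was lost without saline pool 2 (0.058).

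Of the genes that mark the cluster, Ccr7, Lef1, Tcf7 and Bcl2 did not pass at the high dose. Ccr7 stood at 356, 377 and 276 CPM (log2 0.01 ± 0.16 against saline, edgeR adjusted p = 0.993), overlapping the saline pools. Lef1 stood at 308, 336 and 329.7 CPM against 216, 284 and 249.5 CPM with saline (log2 0.36 ± 0.17, 0.344), pools that do not overlap. Tcf7 stood at 191, 154 and 219.8 CPM against 216, 270.5 and 179 CPM (log2 -0.27 ± 0.22, 0.68) and Bcl2 at 266 ± 39.2 CPM against 244 ± 34.3 CPM (log2 0.08 ± 0.24, 0.942).

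**Figure D3:**
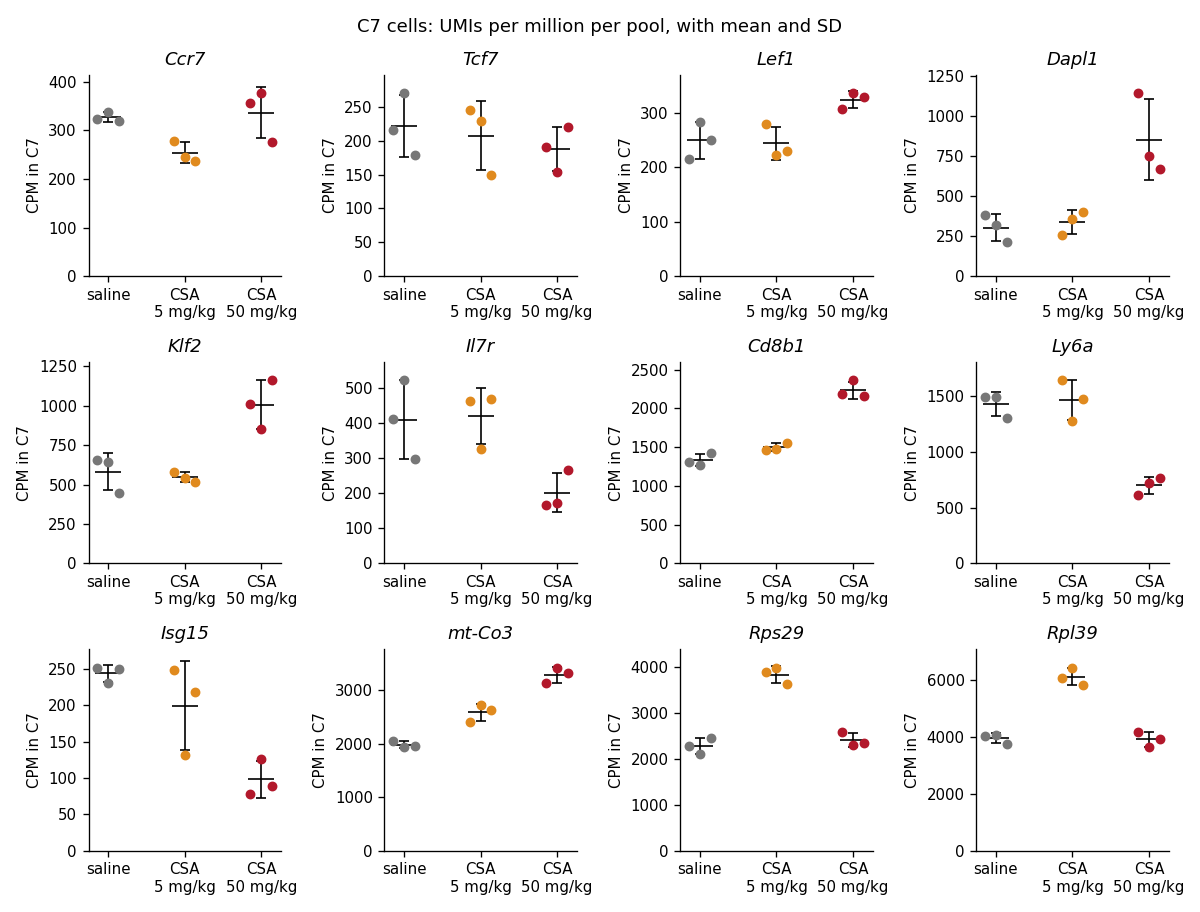
Levels (CPM) of 12 genes in C7; points are pools, lines are means and error bars SDs of 3 pools. Ccr7, Tcf7 and Lef1 passed no test against saline; Dapl1, Klf2 and Cd8b1 are higher and Il7r, Ly6a and Isg15 lower in all high-dose pools than in all saline pools, mt-Co3 is higher at both doses, and Rps29 and Rpl39 are high at the low dose.

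Of the 10 memory genes tested at the high dose 1 rose and 1 fell, beside 1.25% and 2.26% of all genes. Ly6a (Sca-1), a surface protein that interferon raises on T cells, stood at 1489.9, 1494 and 1302 CPM with saline, at 1640.1, 1276 and 1477 CPM at the low dose and at 611, 719 and 763 CPM at the high dose (log2 -1.05 ± 0.11, edgeR adjusted p = 6.57e-09). All 3 high-dose pools lay below the other 6, and the call held whichever pool was left out. The surface protein Cd7 rose from 301 ± 18.8 to 477 ± 81.8 CPM (log2 0.64, edgeR adjusted p = 0.0264), a call lost without any 1 of saline pool 1, saline pool 2, saline pool 3 and high-dose pool 2 (up to 0.132).

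Of the 27 interferon-stimulated genes tested 0 rose and 3 fell at the high dose, where 2.26% of all genes fell, with a median log2 change of -0.31 beside 0.00 over all genes. Isg15 went from 252, 229.9 and 249.5 to 78.0, 127 and 89.1 CPM (log2 -1.31 ± 0.23, edgeR adjusted p = 0.000309), and this call held whichever pool was left out. Ifi27l2a fell from 973 ± 188 to 679 ± 129.6 CPM (log2 -0.56, 0.0103), though not without either saline pool 2 or high-dose pool 3 (up to 0.294).

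Some genes of the receptor complex and of antigen presentation rose at the high dose. Of the 17 genes of the T cell receptor complex and its proximal signalling 2 rose and 0 fell, where 1.25% of all genes rose. Cd8b1, the CD8 beta chain, stood at 1303, 1271 and 1419 CPM with saline, at 1459.8, 1476 and 1557 CPM at the low dose and at 2181, 2361 and 2157 CPM at the high dose (log2 0.73 ± 0.08, edgeR adjusted p = 8e-08). The high-dose pools lay above all others. Cd3g, a chain of the receptor complex, rose from 762 ± 53.3 to 1026 ± 4.05 CPM (log2 0.41, 0.0187), though not without either saline pool 1 or saline pool 2 (up to 0.104). Of the 17 MHC class I genes 2 rose, again beside 1.25% of all genes, H2-K1 (2582 ± 242 to 3297 ± 109 CPM, log2 0.33, 0.00477) and H2-D1 (log2 0.29, 0.0235), the second not without saline pool 3 (0.115).

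The genes of the drug's own targets gave no call. Of 12 calcineurin, cyclophilin and calmodulin genes tested 0 passed in any of the 3 comparisons between groups. Ppia, the cyclophilin that binds CSA, stood at 4007 ± 209 CPM with saline, at 3346 ± 33.8 CPM at the low dose (log2 -0.24 ± 0.07, edgeR adjusted p = 0.114) and at 3891 ± 322 CPM at the high dose (log2 -0.06 ± 0.07, 0.798). The difference at the low dose passed under other settings, with DESeq2 (adjusted p = 0.0114), with library size scaling (0.0248), with only the groups compared in the fit (0.011), without cells of 2 strong hashtags (0.0492) and without high-dose pool 1 (0.0302, edgeR). Of the 20 genes that a receptor signal induces 7 had enough counts to test, and Cd6, a surface regulator of that signal, rose at the high dose (61.9 ± 35.2 to 137 ± 25.0 CPM, log2 1.14, 0.028), though not without any 1 of saline pool 1, saline pool 2 and high-dose pool 3 (up to 0.251). Of 12 genes of the AP-1 and dissociation list Jun fell at the high dose from 223 ± 32.7 to 108 ± 63.2 CPM (log2 -1.02, 0.0268), though not without any 1 of saline pool 1, saline pool 2, saline pool 3, high-dose pool 1 and high-dose pool 2 (up to 0.219). Lists with 0 calls at either dose against saline were glycolysis (11 tested), cytokine receptors (9), quiescence and immunoregulatory genes (18) and inhibitory receptors (2). Of the 5 survival genes tested Birc5, which also serves cell division, fell at the high dose. Over all genes 1.25% rose and 2.26% fell at that dose.

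The 10 largest rises at the high dose were Dapl1, Ctla2a (log2 1.39), the phosphatase Dusp2 (1.28), Mgst2 (1.22), Klrc1 (1.20), Cd6, Ccl5 (1.14), Rasgrp2 (1.13), Ms4a4c (1.00) and Rpl36al (0.93). Rasgrp2, which activates the small GTPase Rap1, stood at 173, 122 and 109 CPM with saline and at 277, 318 and 300.0 CPM at the high dose (edgeR adjusted p = 0.000254), and that call held whichever pool was left out, as did those of Dapl1 and Ccl5. Lost were those of Ctla2a without any 1 of saline pool 1, saline pool 2, saline pool 3 and high-dose pool 3 (up to 0.307), Dusp2 without saline pool 2 (0.107), Mgst2 without any 1 of saline pool 1, saline pool 2, saline pool 3, high-dose pool 1 and high-dose pool 2 (up to 0.205), Ms4a4c without any 1 of saline pool 1, saline pool 3 and high-dose pool 1 (up to 0.202) and Rpl36al without any 1 of saline pool 1, saline pool 3 and high-dose pool 2 (up to 0.14).

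Some transcripts of the mitochondrial genome rose in C7 with CSA. Of 12 tested mt-Co1 and mt-Co3 rose at the low dose, and these with mt-Nd1, mt-Co2 and mt-Atp6 at the high dose, beside 0.685% and 1.25% of all genes called higher. The cytochrome oxidase subunit mt-Co3 stood at 2059, 1941 and 1949.5 CPM with saline, at 2413, 2723 and 2626 CPM at the low dose and at 3135, 3426 and 3315 CPM at the high dose (log2 0.40 and 0.71, edgeR adjusted p = 0.00233 and 1.3e-08). The 3 groups did not overlap, and both calls held whichever pool was left out. The call of mt-Co1 at the low dose (log2 0.31) was lost without any 1 of saline pool 1, saline pool 2, saline pool 3, low-dose pool 2 and low-dose pool 3 (up to 0.316), and that of mt-Co2 at the high dose (log2 0.30) without any 1 of saline pool 1, saline pool 2, saline pool 3 and high-dose pool 3 (up to 0.152). Summed, the mitochondrial genome took 1.31% ± 0.0336, 1.55% ± 0.112 and 1.75% ± 0.0337 of C7 UMIs in the order of dose, and 1.99% ± 0.0282, 1.70% ± 0.0470 and 1.64% ± 0.0515 of those of the other CD8 cells.

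Effector genes gave calls in both directions at the high dose: of 19 tested 3 rose and 3 fell, beside 1.25% and 2.26% of all genes. Those of this list named here beyond Ccl5, Nkg7, Lgals1, S100a6 and Klrc1 were chosen after their values were seen. Klrd1 (CD94), the partner of the NKG2 receptors, went from 324, 237 and 226 to 464, 448 and 409.9 CPM (log2 0.72 ± 0.17, edgeR adjusted p = 0.00691), though not without either saline pool 2 or saline pool 3 (up to 0.0699). Klrc1 (NKG2A) went from 59.0 ± 30.5 to 136 ± 11.8 CPM (0.0268), though not without any 1 of saline pool 1, saline pool 2 and high-dose pool 2 (up to 0.203).

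Gzmb, Lgals3 and Nkg7 fell. These genes were also called lower at the high dose in CD4 C9, where 8 of 9 effector genes tested fell and 0 rose, beside 15.4% of all genes called lower. For each of them the change was more positive in C7 than in CD4 C9 (edgeR interaction test). Gzmb went from 403, 385 and 741 to 160.4, 204 and 238 CPM (log2 -1.32 ± 0.19, edgeR adjusted p = 1.33e-05) and Lgals3 (galectin 3) from 254 ± 29.1 to 64.1 ± 52.0 CPM (log2 -1.87, 0.000156). The granule protein Nkg7 went from 1999.8 ± 50.5 to 1568 ± 55.4 CPM (log2 -0.37, 0.00301), though not without saline pool 2 (0.0613). The granzyme Gzma stood at 216, 257 and 554 CPM with saline and at 4.34, 515 and 131 CPM at the high dose, where pool 2 was apart from the others, and it did not pass (0.674) unless that pool was left out (0.00041). It also passed without cells of 2 strong hashtags (0.00432), with only the cells whose strongest hashtag was that of their pool (0.0107) and without the cells of 10 or more Ccl5 UMIs (3.13e-08).

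Naive CD4 cells of the same captures, which should hardly express such genes, had UMIs of them too. The median UMIs per cell of CD4 C9 were 1974, 3105 and 3236 in the order of dose, so cells of both kinds were thinned to 2000 UMIs, which left out 5, 3 and 0 C7 cells and 56, 9 and 11 CD4 C9 cells. Gzma then had a UMI in 43.6%, 34.6% and 6.21% of C7 cells and in 46.3%, 39.6% and 3.61% of CD4 C9 cells. Its share with saline and at the low dose was thus no higher than in CD4 C9, and alone it does not show expression in C7. Gzma was uneven within C7 by the split on Ccl5 given below. Cells with 10 or more Ccl5 UMIs stood at 892 against 218 CPM in the rest with saline. At the low dose these were 436 against 226 CPM and at the high dose 551 against 9.70 CPM. Whether C7 expressed Gzma was not tested. Gzmb had a UMI in 58.2%, 54.9% and 17.4% of C7 cells (74.8%, 77.6% and 28.0% without thinning) and in 55.6%, 52.1% and 9.64% of CD4 C9 cells. Its share in C7 was thus close to that in CD4 C9 with saline and at the low dose and above it at the high dose, where both were lowest. S100a6, a calcium-binding protein of activated cells, had a UMI in 83.6%, 61.4% and 41.6% of C7 cells and in 92.6%, 69.8% and 22.9% of CD4 C9 cells, which places C7 at or below that level with saline and at the low dose.

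Other genes were above that level. After thinning Klrd1 had a UMI in 35.5%, 42.5% and 54.7% of C7 cells against 9.26%, 9.38% and 3.61% of CD4 C9 cells. Ly6c2 was found in 71.8%, 68.0% and 62.7% of C7 cells against 16.7%, 22.9% and 7.23%. Nkg7 was found in 90.9%, 94.8% and 91.9% of C7 cells against 85.2%, 45.8% and 13.3%, a gap that was small with saline and wide at the high dose. Without thinning the C7 shares were 46.1%, 58.3% and 77.6% for Klrd1, 77.4%, 78.8% and 71.4% for Ly6c2 and 97.4%, 98.7% and 96.3% for Nkg7.

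Ccl5 was uneven within C7. Its summed level was 1396, 2339.7 and 2269 CPM with saline, 1865, 1819 and 2684 CPM at the low dose and 2424, 4673 and 6214 CPM at the high dose (log2 1.14 ± 0.19, edgeR adjusted p = 7.93e-05 for the high dose against saline). The thinned share of C7 cells with a UMI took the opposite course, 81.8%, 62.7% and 54.7% in the order of dose, beside 77.8%, 47.9% and 20.5% of CD4 C9 cells. A split by UMIs per cell, chosen after the values were seen and not thinned, gave 17 of 115 C7 cells with 10 or more Ccl5 UMIs with saline, 29 of 156 at the low dose and 60 of 161 at the high dose (14.8%, 18.6% and 37.3%). Over the same groups, cells with 2 to 9 UMIs went from 60% to 42.3% and 13.7%, and cells with 0 or 1 from 25.2% to 39.1% and 49.1%. By pool the share with 10 or more was 12.8%, 12.2% and 20% with saline, 20.3%, 14.6% and 19.6% at the low dose and 21.7%, 44.1% and 42.9% at the high dose, and pool 1 at the high dose stood near the low-dose pools. Between 8 and 12 UMIs lay 5, 10 and 10 cells.

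The cells on either side of that split are ranges of 1 gene, not types. At the high dose those with 10 or more Ccl5 UMIs, summed over pools, had more Ly6c2 (1838 against 906 CPM), Il2rb (359 against 167 CPM), Cxcr3 (239 against 89.2 CPM) and S100a6 (2043 against 459.8 CPM) than the rest of C7. This was not so in each group for Ly6c2, which stood at 1129 against 1249.5 CPM with saline and at 1207 against 867 CPM at the low dose. High-dose cells with 10 or more also had less Ccr7 (162 against 458 CPM) and Igfbp4 (125 against 250.3 CPM), with Tcf7 at 176 against 198 CPM. Lef1 stood at 329.9 against 324 CPM at the high dose, but at 181 against 265 CPM with saline and at 155 against 275 CPM at the low dose. With these 106 cells left out, 68 genes of 2501 tested were called at the high dose, in place of 118 of 3357. Dapl1 and Klf2 were among them while Il7r was not (log2 -0.80 in place of -1.04, edgeR adjusted p = 0.0638). Ly6c2 then fell by 0.49 on the log2 scale against saline (edgeR adjusted p = 0.0157), where with all cells its change was 0.07 (0.865). The cut took out 37.3% of the high-dose cells and 14.8% of the saline cells, and those with more Ly6c2 than the rest only under CSA. This fit therefore cannot tell a fall of Ly6c2 from the selection, and no conclusion is drawn from it.

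**Figure D4:**
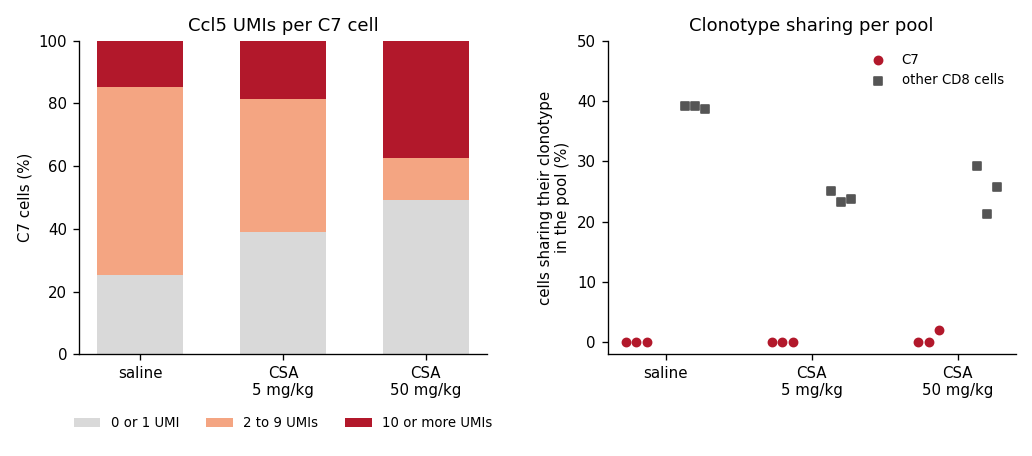
Left, percent of C7 cells by their number of Ccl5 UMIs (115, 156 and 161 cells in the order of dose, pools summed); right, percent of cells per pool that share their clonotype with another CD8 cell of the pool, in C7 and in the other CD8 cells. Cells with 10 or more UMIs are 14.8%, 18.6% and 37.3% of C7, and C7 stands at 0 in all pools but one while the other CD8 cells lie between 21.3% and 39.2%.

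The steepest falls in C7 were of histone genes, which cells make in bulk when they copy DNA. All of the 10 largest falls at the high dose were histone genes, from Hist1h1a (151, 203 and 148 CPM with saline, 57.8, 57.2 and 58.4 CPM at the low dose and 4.34, 3.09 and 2.97 CPM at the high dose, log2 -5.45 ± 0.43, edgeR adjusted p = 2.06e-11) to Hist1h3c (log2 -3.59). The high-dose levels of Hist1h1a lie near the floor of these sums, so the size of its log2 change is uncertain. Of the 17 tested genes with a Hist symbol, a group formed after values were seen, 8 fell at the low dose and 17 at the high dose, where 2.26% of all genes fell. The sum of all genes with a Hist symbol was 0.50% ± 0.0235, 0.279% ± 0.0186 and 0.0399% ± 0.00327 of C7 UMIs in the order of dose. This course was not particular to C7. The same sum was 0.856% ± 0.0424, 0.401% ± 0.0254 and 0.0495% ± 0.0117 in CD4 C9 and 0.909% ± 0.0390, 0.436% ± 0.00980 and 0.154% ± 0.00239 in the other CD8 cells.

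At the low dose the 10 largest falls were the 8 histone genes called at that dose, the centromere protein Cenpa (log2 -1.51, edgeR adjusted p = 0.0309) and the mitotic enzyme Ube2c (log2 -1.23, 0.00991). Of these histone genes Hist1h1c and Hist1h1e were not among the 10 largest falls at the high dose. The call of Cenpa was lost without any 1 of saline pool 1, saline pool 2, saline pool 3, low-dose pool 1 and low-dose pool 3 (up to 0.261). That of Ube2c was lost without either saline pool 3 or low-dose pool 1 (up to 0.136).

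The linker histone Hist1h1b was lower with CSA in the other cells too. It stood at 975 ± 50.3, 448 ± 57.7 and 57.2 ± 7.20 CPM in C7, at 2314 ± 125, 863 ± 22.8 and 344 ± 5.31 CPM in the other CD8 cells and at 1579 ± 72.9, 718 ± 45.0 and 107 ± 27.4 CPM in CD4 C9. After thinning it had a UMI in 86.4%, 64.1% and 14.9% of C7 cells and in 90.7%, 69.8% and 20.5% of CD4 C9 cells. Its share was thus no higher in C7 than in CD4 C9 in each group, and alone it does not show expression in C7. Of 16 cycling genes tested Cenpa fell at the low dose, beside 0.417% of all genes, and 8 fell at the high dose, beside 2.26%. In the 248 C7 cells without a UMI of Mki67, Top2a or Pclaf, 1710 genes could be tested in place of 3357. Of them 21 were called at the low dose, 50 at the high dose and 79 between the doses, in place of 37, 118 and 148. The numbers tested differ, so these counts do not compare effects. How much of the histone and cycling transcripts was RNA free in the droplets was not tested.

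The next question is whether the change with CSA in C7 differed from that in the other CD8 cells. Of 1756 genes that could be tested in C7, in the other CD8 cells and in CD4 C9, 37 passed at the low dose in C7 (2.11%), 1495 in the other CD8 cells (85.1%) and 285 in CD4 C9 (16.2%), and at the high dose 101 (5.75%), 1581 (90%) and 460 (26.2%). The UMI sums of C7 were far smaller than those of the other CD8 cells, so these counts do not compare effects, and the difference of the change was tested itself with the pool as a block. The other CD8 cells are a mixture whose makeup differed between groups: in the order of dose C1 made up 7.87%, 18.5% and 23.1% of CD8 cells, C4 21.9%, 3.06% and 0.567% and C5 9.63%, 10.4% and 2.13%. A change in their sum and a change of that makeup cannot be told apart here.

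That difference was more positive in C7 for 150 genes and more negative for 602 at the low dose, of 9906 tested (7.59%, edgeR quasi-likelihood interaction test, adjusted p under 0.05), and for 273 and 751 at the high dose (10.3%). The split depends on the scaling. With library size in place of TMM it was 504 and 340 at the low dose and 919 and 390 at the high dose, and the median difference over all genes was 0.39 and 0.46 log2 in place of 0.04 and 0.04.

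Ribosomal and respiratory chain genes lay on the negative side under both scalings. Of 79 ribosomal genes tested 77 at the low dose and 78 at the high dose had the more negative change in C7 (74 and 75 with library size scaling), beside 6.08% and 7.58% of all genes, with medians of -1.10 and -1.20. Ribosomal protein genes took 32.5% ± 0.357, 34.3% ± 0.327 and 32.0% ± 1.35 of C7 UMIs in the order of dose, and 11.9% ± 0.346, 20.3% ± 0.224 and 19.7% ± 0.457 of those of the other CD8 cells. C7 held the larger share in every group, and the gap was widest with saline.

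Of 55 nuclear genes of the respiratory chain 52 were more negative in C7 at each dose (45 and 42 with library size scaling, where 1 was more positive at the high dose). They summed to 2.12% ± 0.0520, 2.14% ± 0.0556 and 2.18% ± 0.0692 of C7 UMIs, and 0 of the 55 were called in C7 at either dose. In the other CD8 cells they summed to 1.65% ± 0.0191, 2.69% ± 0.0282 and 2.62% ± 0.0328, and 55 of 55 rose at both doses, where 30.1% and 37.1% of all genes did. C7 was thus above the other CD8 cells with saline and below them with CSA.

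**Figure D5:**
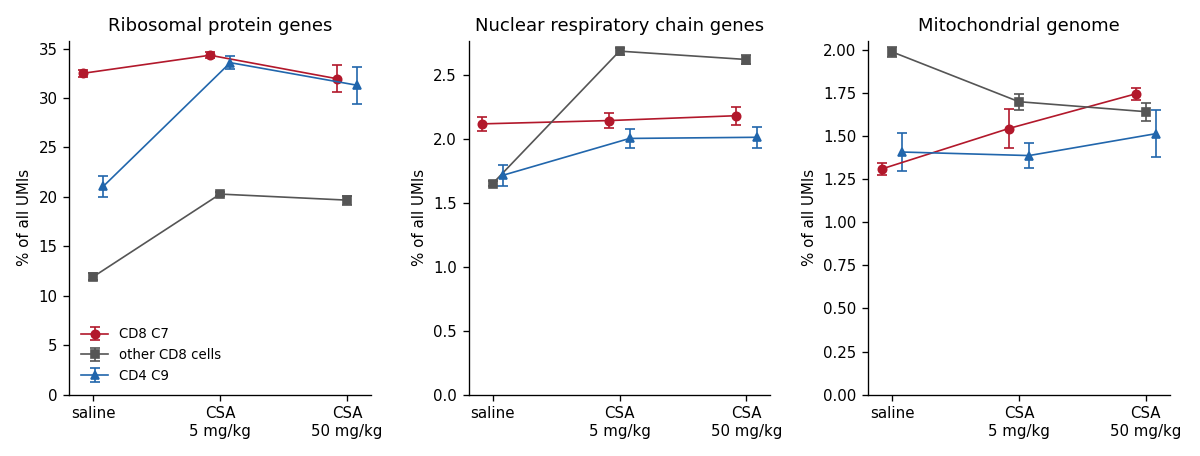
Percent of all UMIs taken by ribosomal protein genes, nuclear respiratory chain genes and the mitochondrial genome in C7, the other CD8 cells and the naive CD4 cluster C9; points are means and error bars SDs of 3 pools. C7 stays between 32.0% and 34.3% in the first panel and between 2.12% and 2.18% in the second while the other CD8 cells rise, and in the third C7 goes from 1.31% to 1.75%.

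Among genes of at least 50 CPM in C7 large positive differences at the low dose were those of Ahnak (log2 2.00), Elovl5 (1.80), the integrin chain Itga4 (1.64) and Suz12 (1.61). For Itga4 the other CD8 cells went from 1973 ± 57.0 to 591 ± 37.9 CPM and C7 from 139 ± 41.2 to 169.9 ± 52.8 CPM. The largest negative ones were those of Ifitm1 (-2.45), S100a6 (-2.17), Tmem256 (-2.07), S100a4 (-2.04) and Uqcr10 (-1.94). S100a6 went from 2300.4 ± 57.3 to 5248 ± 77.1 CPM in the other CD8 cells and from 1082 ± 214 to 695 ± 72.0 CPM in C7.

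At the high dose the largest positive differences were those of Tnfsf8, the CD30 ligand (log2 3.09), Huwe1 (2.15), Inpp4b (1.93), Lyst (1.75) and Caprin1 (1.62). Tnfsf8 stood at 59.9 ± 34.3 and 66.3 ± 16.5 CPM in C7 with saline and at the high dose, and at 26.0 ± 2.25 and 2.49 ± 0.400 CPM in the other CD8 cells. The largest negative ones were those of Ube2c (-3.15), Pclaf (-2.96), Hist1h1a (-2.74), Ly6c2 (-2.51) and Hist1h1d (-2.42). Hist1h1a lay near the floor in C7 at the high dose, so the size of its difference is uncertain. Ly6c2 stood at 1281, 1183 and 1224 CPM in the saline pools of C7 and at 1452, 1225 and 1265 CPM at the high dose, while the other CD8 cells went from 492 ± 73.0 to 2224 ± 312 CPM. C7 was the higher of the pair with saline and the lower at the high dose.

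Of the 20 naive genes the difference at the high dose was positive for Bcl2 (log2 1.61, edgeR adjusted p = 1.5e-12), Tcf7 (1.20, 5.66e-06) and Nsg2 (1.12, 0.00394) and negative for Satb1 (-0.81, 0.0048) and Il7r (-0.78, 0.000757). Over all genes 2.76% were called more positive and 7.58% more negative in C7 at that dose. Tcf7 went from 73.9 ± 8.42 to 19.9 ± 2.91 CPM in the other CD8 cells. At the low dose the difference was negative for Dapl1 (-1.16) and Klf2 (-0.47), beside 6.08% of all genes. Those of Il7r without saline pool 2 (0.11), Satb1 without either saline pool 2 or saline pool 3 (up to 0.0895) and Klf2 without any 1 of saline pool 1, saline pool 2 and low-dose pool 3 (up to 0.19) no longer passed. With library size scaling these 3 calls were lost as well (edgeR adjusted p = 0.222, 0.268 and 0.684).

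Of the 28 effector genes 11 were more negative in C7 at the low dose and 12 at the high dose, beside 6.08% and 7.58% of all genes, with 0 and 1 more positive. For Ccl5 the difference was -1.02 at the low dose and -1.83 at the high dose, with 2186 ± 41.5, 3694 ± 12.8 and 12446 ± 1433 CPM in the other CD8 cells in the order of dose. Of the memory list Ly6a was more negative at the high dose (log2 -1.63), with 1126 ± 41.2 and 1295 ± 187 CPM in the other CD8 cells.

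Against the naive CD4 cells of C9, which were the shallowest of the 3 kinds of cells, 29 genes had the more positive and 110 the more negative change in C7 at the low dose, of 2926 tested (4.75%), and 47 and 117 at the high dose (5.6%). With library size scaling these became 128 and 72, and 112 and 80. Of 78 ribosomal genes 70 and 68 were more negative in C7, beside 3.76% and 4% of all genes (59 and 61 genes with library size scaling), and their sum in C9 was 21.1% ± 1.05, 33.6% ± 0.648 and 31.3% ± 1.88 of UMIs in the order of dose. Of 55 respiratory chain genes 4 and 3 were more negative in C7, and 0 with library size scaling. Of 18 effector genes 3 and 10 were more positive in C7, beside 0.991% and 1.61% of all genes.

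Large positive differences from C9 at the low dose were those of Ppm1h (log2 2.20), Rras2 (2.12), Usp15 (1.98) and Trip12 (1.86), and the largest negative ones those of Isg15 (-1.38), Pfdn5 (-1.36), Irf7 (-1.22), Rps24 (-1.09) and Ndufa6 (-1.08). With library size scaling the differences of Isg15 (edgeR adjusted p = 0.0765), Irf7 (0.113) and Ndufa6 (0.0724) did not pass. Of the 9 calls named here those of Pfdn5, Rps24 and Ndufa6 held whichever pool was left out.

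At the high dose the largest positive and negative ones were Ifitm1 (log2 5.48), Gzma (5.13), Cd8b1 (3.66), Sytl3 (3.61) and Klrc1 (3.49), and Isg15 (-2.04), Mthfd2 (-1.91), Srm (-1.84), Ccdc59 (-1.77) and Klk8 (-1.58). Those of Cd8b1 and Isg15 held whichever pool was left out, and the other 8 were each lost without at least 1 pool. With library size scaling Mthfd2 (edgeR adjusted p = 0.0708), Srm (0.057) and Ccdc59 (0.062) did not pass. Cd8b1, which CD4 cells should lack, went from 253 ± 52.4 to 27.4 ± 13.6 CPM in C9. Isg15 went from 118 ± 28.8 to 177 ± 82.8 CPM in C9 and from 244 ± 12.1 to 97.9 ± 25.4 CPM in C7. After thinning it had a UMI in 24.1%, 28.1% and 19.3% of C9 cells in the order of dose, so by this measure it did not rise in C9 at the high dose. In C7 the shares were 32.7%, 25.5% and 13.7%.

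Between the doses 57 genes were higher and 91 lower at the high dose than at the low dose (4.41% of 3357 tested, 536 at an unadjusted p under 0.05). The 91 (2.71% of those tested) included 17 ribosomal genes, among them Rpl39 (6125 ± 304 to 3914 ± 265 CPM, log2 -0.68, edgeR adjusted p = 4.24e-09) and Rps29 (-0.71, 1.14e-08), and 17 histone genes. Of the naive list Dapl1 (log2 1.29, edgeR adjusted p = 1.85e-06) and Klf2 (0.85, 8.34e-06) were higher and Il7r lower (-1.10, 4.39e-05) at the high dose, and these 3 calls held whichever pool was left out. Of the memory list Ly6a was lower (-1.11, 6.83e-10), and Ly6c2 higher (0.42, 0.00818), the latter not without either low-dose pool 1 or low-dose pool 3 (up to 0.0961). Of the inhibitory receptors Tigit was lower (log2 -2.13, 0.0104), though not without high-dose pool 2 (0.074).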

How the data were processed

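The authors deposited raw counts of unique molecular identifiers (UMIs) per gene and cell from 10x 5' RNA libraries, counts of antibody tags, the fraction of mitochondrial UMIs, and a table of cells with pool, cluster and T cell receptor clonotype; the submitters' notes name mm10, Cell Ranger and Seurat 3.0.0. Cells had been filtered and clustered by the authors before deposit, and how they treated doublets was not re-examined.

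Counts of C7, the other CD8 cells and CD4 C9 were summed per pool and tested with edgeR 4.0.16 (limma 3.58.1, R 4.3.3; filterByExpr, TMM, all 9 pools, quasi-likelihood test, Benjamini-Hochberg adjusted p under 0.05). Differences of a change between kinds of cells used an interaction with the pool as a block, since both sums come from the same pool. Shares, clonotypes and V genes used exact tests over pools (scipy 1.17.1). Pools are 2 mice each, so p-values cover the spread between pools of 1 capture. The interval of the clonotype share is exact binomial and covers counting error only. Pools of different groups share only a number. Correlations of deviations were -0.0431 to 0.0470 for pools of the same number and -0.0484 to 0.0525 for pools of different numbers. Most of the former were positive and most of the latter negative, and this contrast was not tested.

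The members and the gene lists were chosen with earlier results of these data known. Genes were named by rule: the naive list; the 10 largest ratios to other CD8 cells (at least 100 CPM); per dose the 10 largest called changes in each direction (at least 50 CPM, no overlap of pools); up to 4 members of each list by level; and the 5 largest called differences in each direction. Other named genes were chosen after their values were seen, and some genes that the rule names are not reported here. On simulated counts for 50 mg/kg against saline with 3189 genes the test recovered 57.4% of changes of 1 log2 unit and 93.8% of changes of 2, with 8 false calls. The changed genes were drawn from genes tested in C7. Those that the filter removed from the simulated counts were not counted as missed, so recovery over all changed genes was lower. Alternatives were DESeq2 1.42.0, no filter, library size scaling, other sets of cells, the replicate number as a block and leaving out each pool.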

Additional observations from a re-analysis of the deposited data

Results flagged for a closer look

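For these results the change with CSA differed between C7 and another kind of cell by a test of the difference itself (edgeR quasi-likelihood interaction, adjusted p under 0.05). Between C7 and the other CD8 cells 752 genes differed at the low dose and 1024 at the high dose, and between C7 and the naive CD4 cluster C9 139 and 164. All values are differences of log2 changes, positive where the change was more positive in C7.

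Against the other CD8 cells at the low dose the difference was positive for Ahnak (2.00), Elovl5 (1.80), Itga4 (1.64) and Suz12 (1.61), and negative for Ifitm1 (-2.45), S100a6 (-2.17), Tmem256 (-2.07), S100a4 (-2.04), Uqcr10 (-1.94), Dapl1 (-1.16), Ccl5 (-1.02) and Klf2 (-0.47). At the high dose it was positive for Tnfsf8 (3.09), Huwe1 (2.15), Inpp4b (1.93), Lyst (1.75), Caprin1 (1.62), Bcl2 (1.61), Tcf7 (1.20) and Nsg2 (1.12), and negative for Ube2c (-3.15), Pclaf (-2.96), Hist1h1a (-2.74), Ly6c2 (-2.51), Hist1h1d (-2.42), Ccl5 (-1.83), Ly6a (-1.63), Satb1 (-0.81) and Il7r (-0.78). Hist1h1a lay near the floor in C7 at the high dose.

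Against CD4 C9 at the low dose it was positive for Ppm1h (2.20), Rras2 (2.12), Usp15 (1.98) and Trip12 (1.86), and negative for Isg15 (-1.38), Pfdn5 (-1.36), Irf7 (-1.22), Rps24 (-1.09) and Ndufa6 (-1.08). At the high dose it was positive for Ifitm1 (5.48), Gzma (5.13), Cd8b1 (3.66), Sytl3 (3.61) and Klrc1 (3.49), and negative for Isg15 (-2.04), Mthfd2 (-1.91), Srm (-1.84), Ccdc59 (-1.77) and Klk8 (-1.58). With library size scaling 1 of the 12 and 2 of the 17 named calls against the other CD8 cells and 3 of the 9 and 3 of the 10 against CD4 C9 no longer passed, and with DESeq2 2 of the 12, 1 of the 17, 6 of the 9 and 7 of the 10. Under at least 1 alternative 2, 2, 7 and 8 of them were lost. Depth differed between the kinds of cells and with treatment, and its part in these differences was not tested.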

How the results depend on the processing

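The numbers of called genes moved with the tool, the filter, the cells kept and the pools kept. DESeq2 called 71 genes in place of 118 at the high dose against saline, 69 in place of 148 between the doses, and 91 and 98 in place of 139 and 164 for the difference between C7 and CD4 C9 at 5 and 50 mg/kg. Without the filter on low counts 178 were called at the high dose, of 12050 tested in place of 3357. In cells without a UMI of Mki67, Top2a or Pclaf, an alternative added after seeing the data, 21, 50 and 79 were called in place of 37, 118 and 148. There 248 of 432 cells remained and 1710 genes in place of 3357 could be tested. Without cells of 10 or more Ccl5 UMIs, also added afterwards, 68 of 2501 genes tested were called at the high dose. Changes of sign were seen against saline for Ccl5 (-1.65 on the log2 scale) and Ly6c2 (-0.49). The split removes the highest cells of Ccl5, and 37.3% of the high-dose cells against 14.8% of the saline cells. Neither change of sign can therefore be told apart from that selection. The share of C7, which missed the threshold in the trend test, passed with edgeR on numbers of cells (log2 0.88, adjusted p = 0.0103).

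Leaving out each pool gave 19 to 45 calls at the low dose (24 without saline pool 1, 19 without saline pool 3, 23 without low-dose pool 1), 73 to 140 at the high dose (73 without saline pool 2) and 103 to 180 between the doses. For the differences from the other CD8 cells it gave 602 to 747 and 791 to 1024 calls, and for those from CD4 C9 116 to 148 and 140 to 166. The difference between the shares at the high dose and with saline was 1.74 to 2.30 percentage points, that in clonotype sharing from the other CD8 cells -30.2 to -28.0 points, sharing within C7 0 to 1.04 points across doses, and calls of V genes 0 to 0. The cause of these moves was not tested.

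Of the named genes called against saline, 7 of 15 at the low dose and 16 of 29 at the high dose lost the call without at least 1 pool, and 5 and 11 with DESeq2. Under at least 1 alternative 8 and 21 of them were lost. Some calls that held without any pool were lost in cells without a UMI of Mki67, Top2a or Pclaf. Among these were mt-Co3 at the low dose (edgeR adjusted p = 0.215) and Rasgrp2 (0.0856) and H2-K1 (0.0765) at the high dose. With the replicate block, whose numbers pair no samples by the labels, 40, 122 and 163 genes were called in place of 37, 118 and 148. Small sums per pool limit the test for genes of low level, so a missed threshold does not show that a gene did not change.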
